A study of Mus musculus with 20 samples.

Results

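Apolipoproteins, the liver X receptors (LXRs) and the cholesterol exporters of macrophages were followed as a set of 10 genes: Apoe, Apoc1, Apoc2, Pltp, Abca1, Abcg1, Abca7, Nr1h2, Nr1h3 and Mylip. The genes were chosen by symbol, as the Apoe cluster, the ABC transporters that export lipid, the LXR receptors and LXR targets. They are 10 of the 51456 gene symbols listed for each library, and all 10 passed the minimum mean level of 1 FPKQ that left 10843 genes for testing. Apoc1 passed only narrowly, and mainly through its levels in the mutants. FPKQ is the deposited unit of expression, read here as fragments per kilobase of transcript on a scale set by a quantile of each library. All means are given ± SD, and differences are on the scale of log2(FPKQ + 1).

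The cells were macrophages grown from the bone marrow of C57BL/6 mice aged 4 to 5 months, cultured for 6 days with 50 ng/ml CSF-1 (M-CSF), the growth factor that turns marrow precursors into macrophages. The question put to these cells was how disturbing Trem2, a receptor by which macrophages and microglia sense lipid, alters gene expression. Wild-type mice gave 10 libraries (WT Rep1 to Rep10), mice labelled TREM2 5bp KO gave 5 (KO), and mice labelled TREM2 R47H KI, which carry the R47H substitution knocked into mouse Trem2, gave 5 (R47H). Per the design text each mutant line had its own wild-type littermates, with 5 animals per genotype, but no label ties a wild-type library to a line. For this reason the 10 wild-type libraries together were the control of both mutants, which thus share their controls. Each mutant was also set against WT Rep1-5 and against WT Rep6-10. In the order of the samples, WT Rep1-5 stand directly before KO and WT Rep6-10 directly before R47H. No label says that this order marks littermates.

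LXR alpha (Nr1h3) and LXR beta (Nr1h2) are nuclear receptors that bind oxidised cholesterol derivatives and, paired with a retinoid X receptor, switch on genes that carry cholesterol out of the cell. Among their known targets in macrophages are the exporters Abca1 and Abcg1, the apolipoproteins of the Apoe cluster that accept the exported lipid, the phospholipid transfer protein Pltp, and Mylip, a ubiquitin ligase that limits lipoprotein uptake. Macrophages make much of the apolipoprotein E that they export, and Trem2 is known to bind lipids and lipoproteins, apolipoprotein E among them.

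Trem2 itself was 691 to 901 FPKQ in the wild-type libraries, 23.7 to 24.8 in KO and 496 to 794 in R47H. The targeted transcript was thus far below wild type in every KO library (log2 difference -5.004), and the R47H range overlapped the wild-type one (log2 difference -0.33, limma adjusted p = 0.0110). The R47H difference was called from WT Rep1-5 (-0.39, limma adjusted p = 0.00952) and not from WT Rep6-10 (-0.27, limma adjusted p = 0.0657). A value of 1 FPKQ in a gene of 2 kb stood for 61.7 ± 5.18 fragments in the 10 wild-type libraries, 52.3 ± 3.87 in the 5 of KO and 53.2 ± 3.71 in the 5 of R47H, as estimated from the steps between low values. Of the macrophage markers, 11 of 12 were tested, and their summed level was 23499 to 26897 FPKQ in wild type against 32745 to 35507 in KO and 26759 to 29795 in R47H, nearly all of it Lyz2. In KO 5 of the 11 were called higher, among them Mertk (log2 difference 1.84). Another 5 were called lower, among them Cd14 (-1.26), Itgam (-0.55) and Fcgr1 (-0.43). In R47H 4 were higher and 2 lower. The median difference over the 11 was 0.03 in KO and 0.12 in R47H. Of all tested genes, 52.0% were called in KO and 21.2% in R47H. Markers of T and NK cells (9 of 9) and of erythroid cells (7 of 7) were below 1 FPKQ in every library, as were 8 of 9 stromal markers. In the adipocyte list Plin1, Lep and Cfd were listed at 0 throughout, and its sum was 103 to 157 FPKQ in wild type against 163 to 230 in KO and 149 to 263 in R47H, nearly all of it Fabp4, which macrophages also make. The summed neutrophil markers were 72.3 to 109 FPKQ in wild type against 99.9 to 132 in KO and 88.0 to 154 in R47H. Of 5 tested, Csf3r alone rose in KO (29.8 to 55.6 FPKQ), with S100a8 at 17.9 and 18.0 and S100a9 at 33.6 and 33.9 FPKQ in wild type and KO, and Csf3r and Ngp rose in R47H. The summed endothelial markers were 20.9 to 27.2 FPKQ in wild type, against 27.1 to 35.0 in KO and 20.6 to 26.2 in R47H. Both tested genes were called higher in KO, and in R47H 1 was called higher and 1 lower. Those of B cells were 86.8 to 104, 86.7 to 103 and 101 to 121 FPKQ in the same order, with 1 of 2 tested genes called higher in R47H. Those of dendritic cells were 29.1 to 87.3, 38.9 to 56.6 and 37.9 to 53.3, with 1 of 3 tested genes called lower in KO. Those of mast cells and basophils were 4.01 to 5.87, 2.64 to 4.37 and 3.30 to 5.21, with Kit, the tested gene, lower in KO. The part of these marker differences in the results was not tested.

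Against wild type, KO macrophages had higher levels of 6 of the 10 genes and lower levels of none. Apoc1, among the 6, passed the minimum level mainly through its mutant levels, and with no filter it was not called (limma adjusted p = 0.0560). Apoe (log2 difference 1.84), Abca1 (1.27), Mylip (1.15) and Apoc2 (1.06) rose most, followed by Apoc1 (0.66) and Nr1h3 (0.29). Their limma adjusted p ran from 3.62e-10 for Apoe to 0.0242 for Apoc1. Of all tested genes, 52.0% were called in this comparison and 28.2% were called higher. The median difference was 0.48 over the 10 genes and 0.01 over all tested genes. The ranges of 4 genes, Apoe, Apoc2, Abca1 and Mylip, lay wholly above the wild-type range, as did those of 15.4% of all tested genes. With WT Rep1-5 as the control 5 of the 10 genes were called (24.7% of all tested genes were called higher there), and with WT Rep6-10 also 5 (27.6% of all).

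In R47H macrophages 4 of the 10 genes rose and none fell: Apoe (log2 difference 1.06), Apoc2 (0.87), Nr1h3 (0.66) and Mylip (0.42). Of all tested genes, 21.2% were called and 13.4% were called higher. The median difference was 0.36 over the 10 genes and 0.04 over all tested genes. Only Apoe and Apoc2 had ranges wholly above the wild-type range, against 3.77% of all tested genes. The call for Mylip depended on the control: 3 of the 10 genes were called against WT Rep1-5 (Apoe, Apoc2 and Nr1h3, with 13.9% of all tested genes called higher), and 5 against WT Rep6-10 (these with Abca1 and Mylip, with 12.7% of all). Scaling every library to the same summed FPKQ moved the median of all tested genes by -0.11 in this comparison, and the differences were then 0.93 for Apoe, 0.74 for Apoc2, 0.54 for Nr1h3 and 0.30 for Mylip, the last no longer called (adjusted p = 0.0924 with limma). Under that scaling 20.7% of the called genes were higher, against 63.1% without it. In KO the same scaling changed that share from 54.3% to 36.1%.

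**Figure D1:**
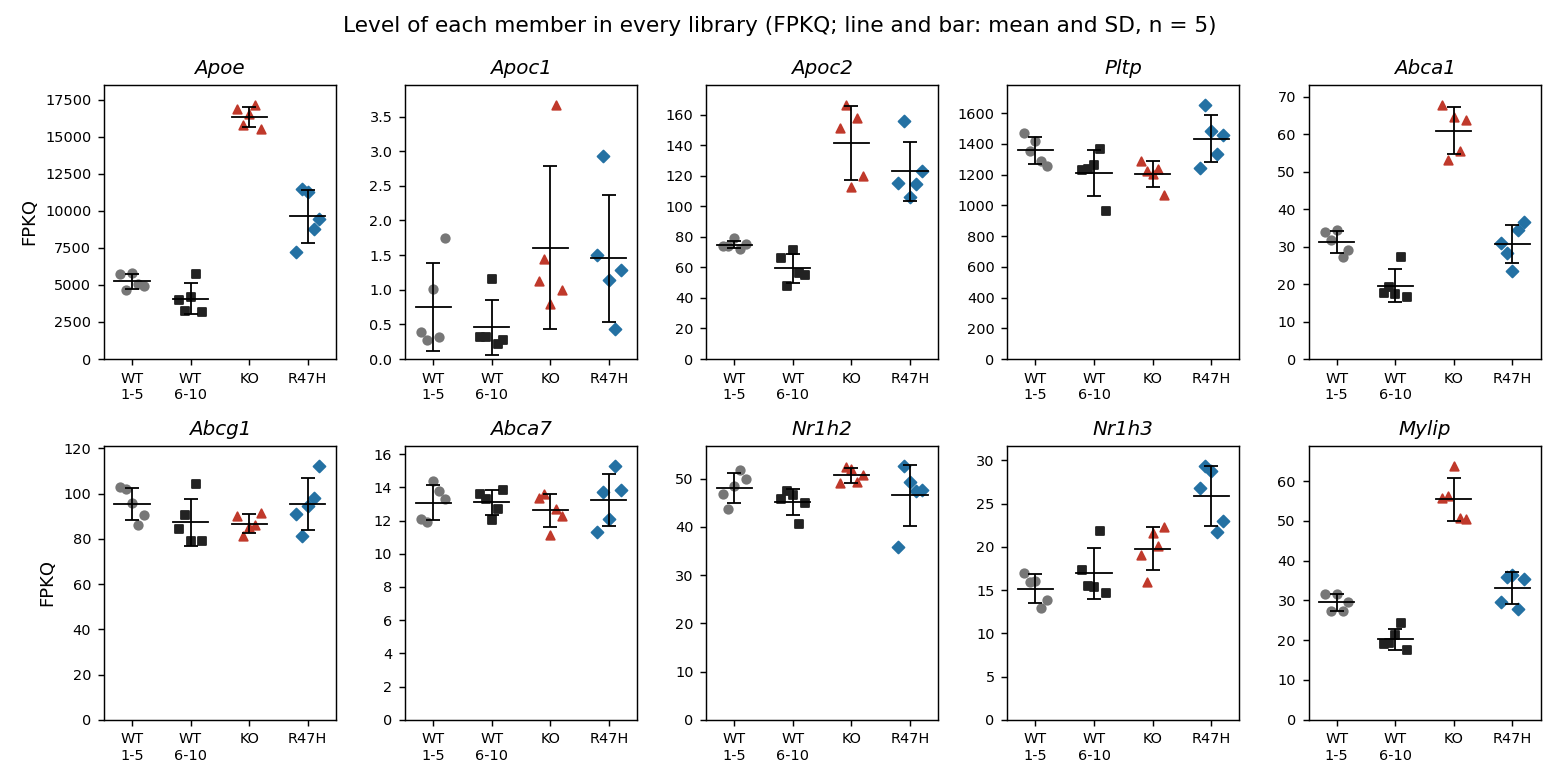
Level of each of the 10 genes in every library, in FPKQ (vertical axis from 0), with the wild-type libraries drawn as WT Rep1-5 and WT Rep6-10. Each point is 1 library, and the line and bar are the mean and SD of 5 libraries. The KO points of Apoe lie between 15537 and 17122, above all other points, while the points of Abca7 stay between 11.1 and 15.3 in every group.

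Apoe, the main lipid acceptor secreted by macrophages, lies on chromosome 7 (GRCm38 7:19696109-19699188, minus strand). Its level in the wild-type libraries was 3199 at the lowest, 4786 at the median and 5816 FPKQ at the highest. In KO Rep1 to Rep5 it was 16836, 15791, 16498, 17122 and 15537 FPKQ. In R47H Rep1 to Rep5 it was 7199, 11490, 11252, 8776 and 9419 FPKQ. The 3 ranges did not overlap: every R47H library stood above all wild-type libraries and below all KO libraries. The wild-type mean was 4659 ± 981 FPKQ (n = 10), that of KO 16357 ± 676 (n = 5) and that of R47H 9627 ± 1787 (n = 5), so that KO had 3.51 and R47H 2.07 times the wild-type mean. Apoe made up 0.796% ± 0.170 of the summed FPKQ of a wild-type library, 2.64% ± 0.104 in KO and 1.504% ± 0.221 in R47H. By mean level it ranked 11 among all genes in wild type against 3 in KO and 5 in R47H. The R47H libraries spread more among themselves than the KO libraries did (coefficient of variation 18.6% against 4.13%), a difference that was not tested.

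The rise of Apoe was called with either wild-type set in both mutants. In KO the log2 difference was 1.65 from WT Rep1-5 and 2.04 from WT Rep6-10 (limma adjusted p = 5.92e-09 and 1.76e-10). In R47H it was 0.863 and 1.251 (limma adjusted p = 1.72e-04 and 2.13e-06). R47H lay below KO by a log2 difference of -0.78 (95% interval -1.12 to -0.45, limma adjusted p = 6.76e-04). With R47H from WT Rep6-10 and KO from WT Rep1-5 it was -0.40 and not called (limma adjusted p = 0.185). With the sets exchanged it was -1.17 and called. In bulk RNA, a change in the share of cells that make a transcript and a change in its amount per cell cannot be told apart, here and for every gene below.

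Apoc2, the apolipoprotein that activates lipoprotein lipase, lies in the same cluster (7:19671579-19677941, minus strand). Wild-type levels ran from 47.6 through a median of 71.7 to 79.2 FPKQ. KO Rep1 to Rep5 had 151, 166, 112, 158 and 119 FPKQ, and R47H Rep1 to Rep5 had 115, 156, 106, 114 and 123. All 10 mutant libraries were above all 10 wild-type libraries, and the KO and R47H ranges overlapped. The log2 difference from wild type was 1.06 ± 0.12 in KO (SE, limma adjusted p = 1.49e-07) and 0.87 ± 0.12 in R47H (SE, limma adjusted p = 1.68e-05). R47H and KO differed by -0.20 (95% interval -0.48 to 0.09, limma adjusted p = 0.259), so a difference between the mutants was not shown, and the interval allows R47H to be lower by up to 0.48. The unnamed gene model Gm44805 overlaps Apoc2 on the annotation and was listed at 0 to 0.682 FPKQ.

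Apoc1, which inhibits lipoprotein uptake and lipoprotein lipase, lies next to Apoe (7:19689481-19692660, minus strand). It was near the floor of the assay: wild-type levels were 0.216 at the lowest, 0.324 at the median and 1.75 FPKQ at the highest, or about 3.69 to 27.1 fragments per library. In order, the KO libraries had 1.13, 1.45, 0.788, 3.66 and 1.00 FPKQ. The R47H libraries had 1.51, 2.92, 1.14, 0.426 and 1.28 FPKQ. Both mutant ranges overlapped the wild-type range, in which WT Rep3, Rep5 and Rep8 stood above 1 FPKQ. The call in KO (log2 difference 0.66 ± 0.24, SE, limma adjusted p = 0.0242) was lost without KO Rep4 (0.43, adjusted p = 0.121) and with WT Rep1-5 as the control (0.55, adjusted p = 0.117). In R47H the difference of 0.59 (95% interval 0.10 to 1.09) did not pass (adjusted p = 0.0818), and it passed without R47H Rep4 (0.77, adjusted p = 0.0279) or without WT Rep5 (0.69, adjusted p = 0.0349).

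Around the cluster, 12 neighbouring genes were tested. In KO 2 of them were called higher and 4 lower, and in R47H none of the 12 passed, where 52.0% and 21.2% of all tested genes were called; the KO share is near that background. Bcl3, a nuclear cofactor of NF-kB, rose from 12.1 ± 1.38 to 16.1 ± 1.72 FPKQ in KO (log2 difference 0.38). Tomm40, a subunit of the mitochondrial import pore whose start lies 16.2 kb from that of Apoe, fell by 0.23 on the log2 scale in KO. Nectin2, a cell adhesion molecule, fell by 0.24. Apoe and Apoc2 had larger differences in either mutant than any of the 11 tested neighbours within 300 kb. So did Apoc1, but it lay near the floor, passed the minimum level mainly through its mutant levels and was not called in R47H. Apoc4, of the same cluster, was below the minimum level. This is a description of sizes.

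**Figure D2:**
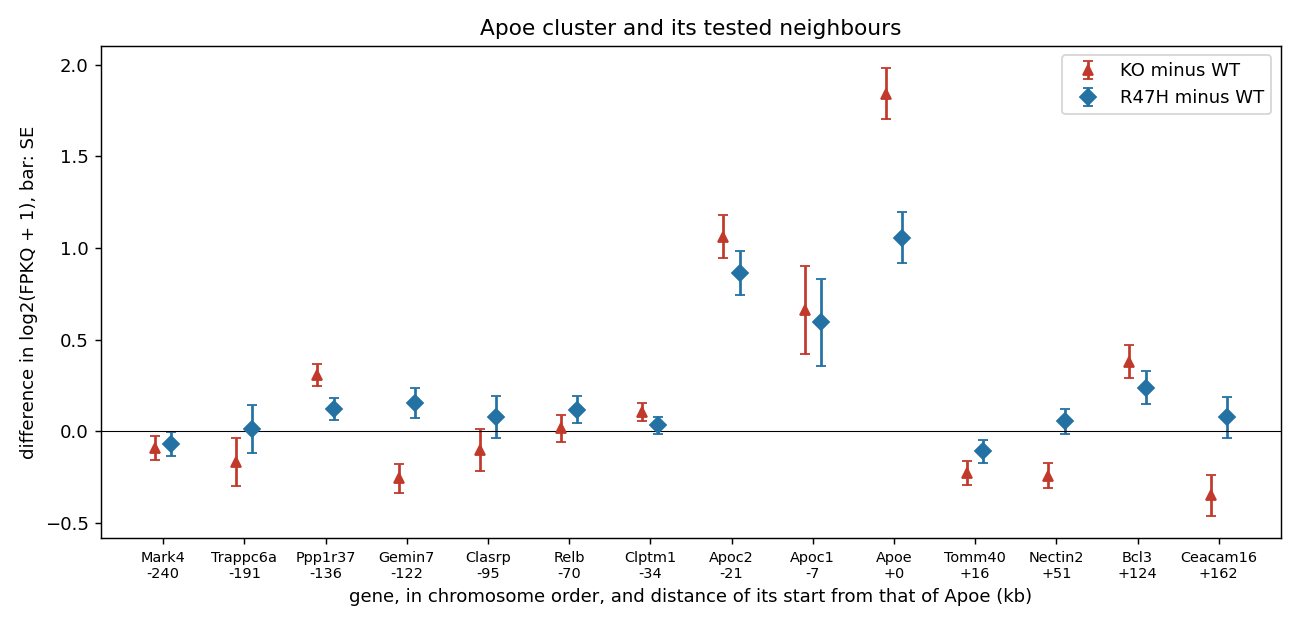
Difference from wild type in log2(FPKQ + 1) for the 3 apolipoprotein genes and their 11 tested neighbours within 300 kb, in chromosome order, with bars of 1 SE. Apoe stands at 1.84 in KO and 1.06 in R47H, and the neighbours lie between -0.35 and 0.38.

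Pltp, which moves phospholipid between lipoproteins and is secreted by macrophages, lies on chromosome 2 (2:164839518-164857711, minus strand). After Apoe it had the highest level of the set in every group. Wild-type levels were 965 at the lowest, 1279 at the median and 1472 FPKQ at the highest. KO Rep1 to Rep5 had 1286, 1226, 1203, 1238 and 1069 FPKQ, and R47H Rep1 to Rep5 had 1244, 1652, 1488, 1335 and 1457. Both mutant ranges overlapped the wild-type range. The log2 difference was -0.09 in KO (95% interval -0.26 to 0.08, limma adjusted p = 0.373) and 0.16 in R47H (95% interval -0.01 to 0.33, limma adjusted p = 0.174).

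**Figure D3:**
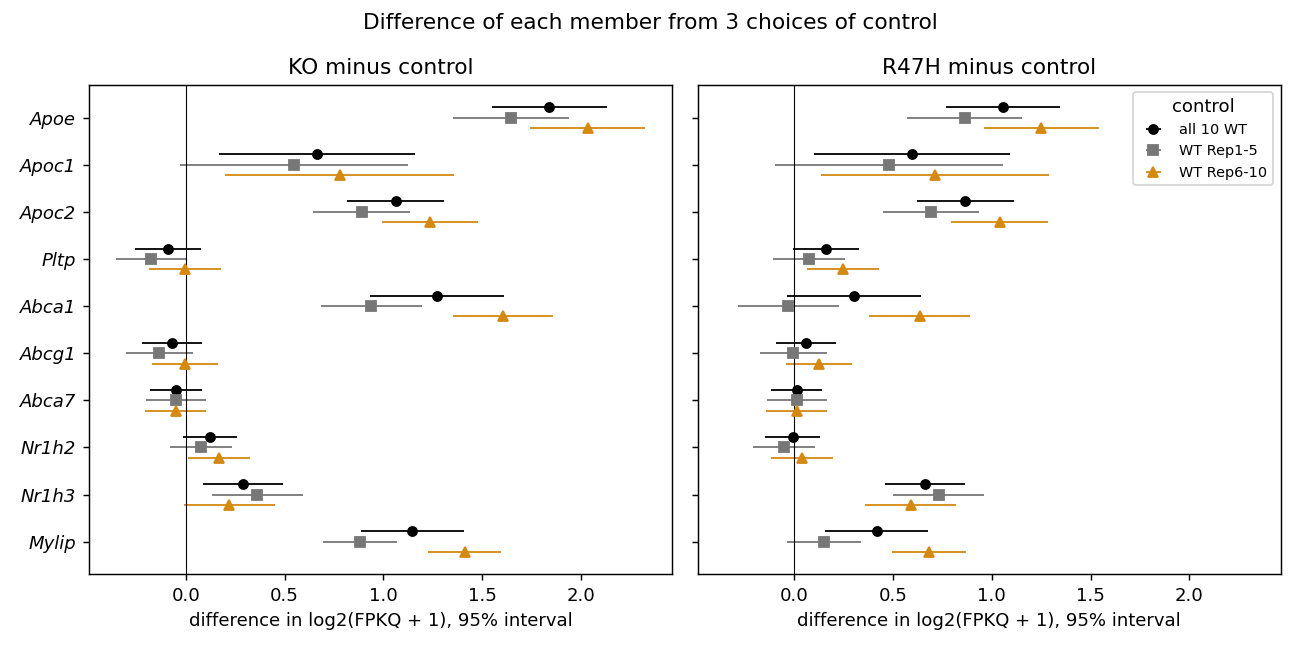
Difference of each gene from the control in log2(FPKQ + 1), for KO (left) and R47H (right), with 95% intervals, for 3 choices of control: all 10 wild-type libraries, WT Rep1-5 or WT Rep6-10. Abca1 in R47H stands at 0.30, -0.03 and 0.63 for the 3 controls, while Apoe in R47H stands at 1.06, 0.863 and 1.251.

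Abca1, the transporter that loads cholesterol and phospholipid onto lipid-poor apolipoproteins, spans 4:53030787-53159895 on the minus strand. WT Rep1 to Rep5 had 33.7, 31.8, 34.3, 27.3 and 29.0 FPKQ. WT Rep6 to Rep10 had 17.6, 19.2, 17.3, 27.2 and 16.6 FPKQ. The wild-type sets did not overlap, although WT Rep9 of the second set fell just short of the lowest library of the first. KO Rep1 to Rep5 had 67.7, 53.1, 64.5, 55.4 and 63.7 FPKQ, all above every other library. R47H Rep1 to Rep5 had 30.9, 28.4, 23.6, 34.3 and 36.6 FPKQ, which overlaps both wild-type sets.

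Abca1 was higher in KO against either set, by 0.94 from WT Rep1-5 and 1.61 from WT Rep6-10 (limma adjusted p = 2.34e-06 and 7.76e-10). For R47H the outcome turned on the control. The difference was -0.03 from WT Rep1-5 (95% interval -0.29 to 0.22, limma adjusted p = 0.883), 0.63 from WT Rep6-10 (limma adjusted p = 7.55e-04) and 0.30 from all 10 (95% interval -0.04 to 0.64, limma adjusted p = 0.204). WT Rep6-10 lay below WT Rep1-5 by a log2 difference of -0.67 (95% interval -0.92 to -0.41, limma adjusted p = 0.00255).

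Mylip, also named Idol, encodes a ubiquitin ligase that limits lipoprotein uptake, and it lies on chromosome 13 (13:45389742-45412022, plus strand). WT Rep1 to Rep5 had 31.7, 27.4, 31.5, 27.4 and 29.7 FPKQ, and WT Rep6 to Rep10 had 19.0, 19.2, 21.3, 24.3 and 17.4. KO Rep1 to Rep5 had 55.7, 56.2, 63.8, 50.8 and 50.5 FPKQ. R47H Rep1 to Rep5 had 29.7, 36.0, 36.5, 27.8 and 35.3 FPKQ. As for Abca1, the wild-type sets did not overlap, KO stood above all other libraries, and R47H overlapped WT Rep1-5 but here lay wholly above WT Rep6-10. KO differed by 0.88 from WT Rep1-5 and by 1.41 from WT Rep6-10 (limma adjusted p = 7.47e-08 and 5.43e-11). R47H differed by 0.15 from WT Rep1-5 (95% interval -0.04 to 0.34, limma adjusted p = 0.251) and by 0.68 from WT Rep6-10 (limma adjusted p = 1.31e-05).

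Between the wild-type sets, 2 of the 10 genes were called, Abca1 and Mylip (-0.53, limma adjusted p = 0.00134), both lower in WT Rep6-10, where 6.51% of all tested genes were called and 2.88% were called lower. The ranges of Apoc2, Abca1 and Mylip lay wholly below in WT Rep6-10, as did those of 5.25% of all tested genes. Apoe was 5238 ± 507 FPKQ in WT Rep1-5 and 4080 ± 1035 in WT Rep6-10 (n = 5 each), a log2 difference of -0.39 that did not pass (limma adjusted p = 0.0988). Without WT Rep9, whose Apoe level of 5763 FPKQ was the highest of its set, that difference was -0.52 and passed (adjusted p = 0.0176). The labels name no batch for these sets, so line, litter and handling cannot be told apart in them.

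The 250 bases before the start of Abca1 and of Mylip are shown because their transcripts moved together between the wild-type sets and in KO. The sequences are from RefSeq on GRCm38.p6, at chr4:53159896-53160145 on the minus strand and chr13:45389492-45389741 on the plus strand. Capitals mark matches to TATAAA and, in Abca1, to a direct-repeat core of the kind that LXR and the retinoid X receptor bind.
Abca1: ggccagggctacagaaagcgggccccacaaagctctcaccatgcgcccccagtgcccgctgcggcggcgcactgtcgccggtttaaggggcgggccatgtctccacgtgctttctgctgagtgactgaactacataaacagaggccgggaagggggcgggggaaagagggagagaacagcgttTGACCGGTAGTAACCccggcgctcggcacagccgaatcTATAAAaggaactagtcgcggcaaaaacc
Mylip: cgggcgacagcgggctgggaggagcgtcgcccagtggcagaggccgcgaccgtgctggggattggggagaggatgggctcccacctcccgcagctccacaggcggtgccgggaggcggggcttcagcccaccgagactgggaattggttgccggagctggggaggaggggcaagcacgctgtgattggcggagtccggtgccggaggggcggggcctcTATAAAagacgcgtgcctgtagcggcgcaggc
The repeat core searched, on both strands, was GGTNA and GGTCA with any 5 bases between them. It matched the Abca1 window on the other strand as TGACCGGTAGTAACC, 67 to 53 bases before the start, and no other window of these genes. Of 32851 RefSeq promoter windows of the same length, 58 (0.177%) held it. In GGTNA the N stands for any base, where the full repeat has C. The match and its share therefore describe this looser spelling only. The full repeat, AGGTCA and AGGTCA with any 4 bases between them, was in 5 of the 32851 windows (0.0152%) and in none of these genes. TATAAA, also searched on both strands, stood 29 to 24 bases before the start of Abca1 and 32 to 27 bases before that of Mylip. A window of Apoe held it too, 96 to 91 bases before its start on the gene strand and 100 to 95 on the other strand. Of all the windows, 12.4% held TATAAA. RefSeq windows were found for 8 of the 10 genes, Apoc1 and Abcg1 being the others. A match describes letters and not a bound site.

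Abcg1, which exports cholesterol to mature HDL particles and is commonly named beside Abca1 as an LXR target, spans 17:31057675-31117988 on the plus strand. Wild-type levels were 79.1 at the lowest, 90.5 at the median and 104 FPKQ at the highest. KO Rep1 to Rep5 had 90.0, 81.2, 85.1, 86.3 and 91.4 FPKQ, and R47H Rep1 to Rep5 had 91.2, 81.1, 94.4, 98.1 and 112. All the KO libraries lay within the wild-type range, and R47H exceeded it only in Rep5. The log2 difference was -0.07 in KO (95% interval -0.22 to 0.08, limma adjusted p = 0.445) and 0.06 in R47H (95% interval -0.09 to 0.21, limma adjusted p = 0.616). The ratio of Abcg1 to Abca1 was 3.80 ± 0.832 in wild type (n = 10), 1.43 ± 0.109 in KO and 3.15 ± 0.487 in R47H (n = 5 each). The KO ratios, 1.32 to 1.56, all lay below the lowest wild-type ratio of 2.80.

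Abca7, a transporter linked to phospholipid export and phagocytosis, spans 10:79996494-80015572 on the plus strand. Its levels were 11.9 to 14.4 FPKQ in wild type against 11.1 to 13.6 in KO and 11.3 to 15.3 in R47H. The groups overlapped throughout, with log2 differences of -0.05 in KO (95% interval -0.18 to 0.08) and 0.01 in R47H (95% interval -0.12 to 0.14), neither of which passed. Each of these intervals leaves out a change of the size seen for Abca1 in KO.

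The LXR genes differed from each other. Nr1h2 (LXR beta, 7:44549616-44553951, minus strand) was 40.5 at the lowest, 46.7 at the median and 51.7 FPKQ at the highest in wild type against 49.0 to 52.5 in KO and 35.9 to 52.6 in R47H. The ranges overlapped and neither difference passed, at 0.12 in KO (95% interval -0.02 to 0.26, limma adjusted p = 0.132) and -0.01 in R47H (95% interval -0.15 to 0.13, limma adjusted p = 0.948). In a fit of only KO and wild type the KO difference passed (adjusted p = 0.0383).

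Nr1h3 (LXR alpha, 2:91184061-91202834, minus strand), the form whose own gene is an LXR target in some cells, had wild-type levels of 12.96 at the lowest, 15.7 at the median and 21.9 FPKQ at the highest. The KO libraries, Rep1 to Rep5, had 19.1, 15.9, 21.6, 20.1 and 22.3 FPKQ. Those of R47H had 26.8, 29.3, 28.7, 21.7 and 23.0 FPKQ. The KO range overlapped the wild-type range, and R47H overlapped it only where R47H Rep4 (21.7) fell just below WT Rep9 (21.9). From the shared wild-type libraries, the rise was larger in R47H (log2 difference 0.66 ± 0.10, SE, limma adjusted p = 3.91e-05) than in KO (0.29 ± 0.10, SE, limma adjusted p = 0.0167). R47H exceeded KO by 0.37 (95% interval 0.14 to 0.60, limma adjusted p = 0.0124). With R47H from WT Rep6-10 and KO from WT Rep1-5 that excess was 0.23 and not called (limma adjusted p = 0.340), and with the sets exchanged it was 0.51 and called. In R47H the rise was called with either wild-type set (0.73 and 0.59). In KO it was called from WT Rep1-5 (0.36, limma adjusted p = 0.0117) and not from WT Rep6-10 (0.22, adjusted p = 0.103), nor with equal summed FPKQ (0.21, adjusted p = 0.0554), nor without KO Rep3 (adjusted p = 0.0516) or KO Rep5 (adjusted p = 0.0586). The ratio of Nr1h3 to Nr1h2 was 0.349 ± 0.0777 in wild type (n = 10), 0.391 ± 0.0524 in KO and 0.565 ± 0.114 in R47H (n = 5 each).

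**Figure D4:**
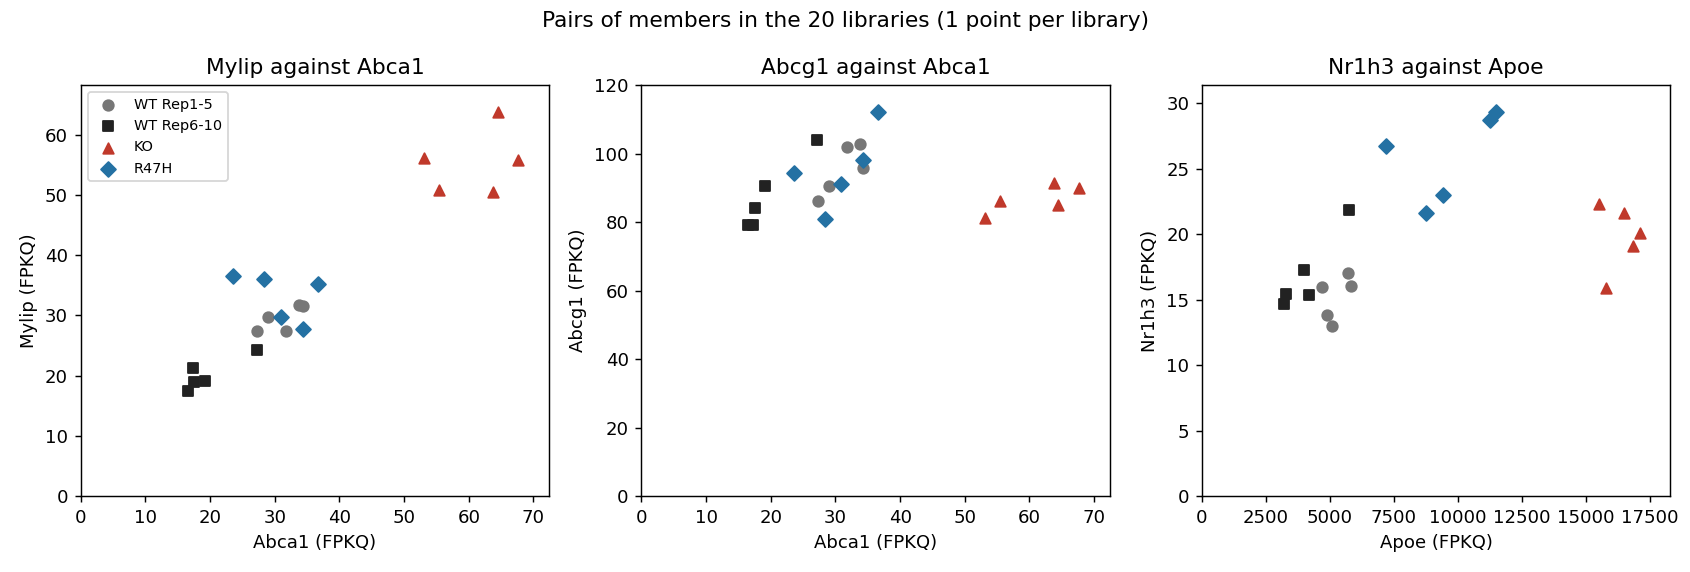
Levels of 3 pairs of genes in the 20 libraries, in FPKQ, with 1 point per library and a symbol for each group. In the left panel the KO points stand apart at Abca1 above 53 FPKQ and Mylip above 50; in the middle panel they keep Abcg1 levels within those of wild type; in the right panel Nr1h3 is highest in R47H (21.7 to 29.3) and Apoe in KO.

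Set directly against KO, R47H had lower levels of 3 of the 10 genes, Abca1 (log2 difference -0.97), Apoe (-0.78) and Mylip (-0.73), and higher levels of 2, Nr1h3 (0.37) and Pltp (0.25). Their limma adjusted p ran from 3.98e-04 to 0.0385, and 40.7% of all tested genes were called, 22.8% higher and 18.0% lower. The 5 of 10 called are near that share, and so are the 2 called higher. The ranges of Abca1, Apoe and Mylip lay wholly below those of KO, as did those of 10.8% of all tested genes. Apoc1, Apoc2, Abcg1, Abca7 and Nr1h2 did not pass. The comparison was repeated as a difference between each mutant's distance from a wild-type set of its own, since littermates belonged to each line. The order of the samples would pair R47H with WT Rep6-10 and KO with WT Rep1-5, though no label states this. With R47H measured from WT Rep6-10 and KO from WT Rep1-5, the differences were -0.40 for Apoe (limma adjusted p = 0.185), -0.31 for Abca1 (0.244), -0.20 for Mylip (0.295) and 0.23 for Nr1h3 (0.340). Pltp alone passed there (0.42, adjusted p = 0.0266). With the sets exchanged they were -1.17 for Apoe, -1.64 for Abca1, -1.26 for Mylip, -0.54 for Apoc2 and 0.51 for Nr1h3, all called, and Pltp was not (0.08, adjusted p = 0.652).

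Ordered by mean level in wild type, the set ran Apoe, Pltp, Abcg1, Apoc2, Nr1h2, Abca1, Mylip, Nr1h3, Abca7 and Apoc1. The ranges of the neighbours Abcg1 and Apoc2, Apoc2 and Nr1h2, Abca1 and Mylip, Mylip and Nr1h3, and Nr1h3 and Abca7 overlapped, and the other neighbours were separate. In KO, Apoc2 moved above Abcg1, and Abca1 and Mylip moved above Nr1h2, with the ranges of Abca1 and Mylip and of Mylip and Nr1h2 overlapping. These are levels per length of transcript.

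Across the 20 libraries, the genes whose log2 values followed Apoe most closely were Tmem86a (Pearson r = 0.973), Cyp4f18, Itm2b, Cd300a and Plbd2 (0.968). Among the set Mylip followed it most closely (0.945), then Apoc2 (0.912) and Abca1 (0.862). Those values largely reflect the groups. For deviations from the means of the 4 groups, the genes outside the set most like Apoe were Cebpa (r = 0.837), Lman2l, Angptl4, Tk2 and Pla2g15 (0.753). Within the set they were Pltp (0.787, rank 3 of 10842 genes) and Mylip (0.766, rank 6), so libraries of a group with more Apoe tended to have more of both. Abca1 was followed over all values by Nhlrc3 (0.976), Susd6, Atp2b1, Tbc1d2b and Zfp652, and in deviations by Atxn3 (0.938), Man2a1, Arid4b, Ube3a and Fem1c. In deviations Abcg1 was the member nearest to Abca1 (0.776, rank 157), and Mylip was not close (0.285). The points share library and depth, and these correlations over 20 libraries are descriptions.

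Other genes listed as LXR targets did not share a direction. Of 17 tested, 6 rose and 11 fell in KO, and in R47H 5 rose, 7 fell and 5 did not pass. Over all tested genes 52.0% were called in KO (28.2% higher) and 21.2% in R47H (13.4% higher), and these shares apply to each list below. Mertk, a receptor for apoptotic cells, rose from 14.1 ± 3.18 to 52.3 ± 3.66 FPKQ in KO and to 25.6 ± 2.45 in R47H. Tgm2, a transglutaminase, rose from 44.1 ± 6.50 to 131 ± 8.25 and 65.5 ± 8.07, and Smpdl3a, a phosphodiesterase, from 126 ± 7.06 to 207 ± 10.4 and 159 ± 5.60. Mertk and Tgm2 were also lower in WT Rep6-10 than in WT Rep1-5 (log2 differences -0.52 and -0.35, both called), as Abca1 and Mylip were, while Elovl5 (0.29), Plin2 (0.35) and Ptpn6 (0.17) of the same list were higher there and the other 12 were not called. Lpl, which hydrolyses the triglyceride of lipoproteins and is activated by Apoc2, fell from 1948 ± 281 to 430 ± 88.6 FPKQ in KO and to 1505 ± 215 in R47H, where the call held from WT Rep6-10 (-0.51) and not from WT Rep1-5 (-0.23, limma adjusted p = 0.184). The desaturases fell in both: Scd1 from 10.5 ± 2.37 to 1.63 ± 0.294 and 3.90 ± 1.26, and Scd2 from 89.0 ± 7.97 to 21.5 ± 1.28 and 45.3 ± 14.6. Scd1 and Scd2 were named after their values were seen. The medians over the 17 genes were -0.38 in KO and -0.01 in R47H. Whether each gene of this list is an LXR target in these cells was not tested. For Ptpn6, lower in KO (-0.39) and higher in R47H (0.19), its place in the list is uncertain.

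Of 19 tested partners and coregulators of LXR, 6 were called higher and 3 lower in KO and 10 were not called, while in R47H 3 rose and 16 were not called. The share called in KO is near the 52.0% of all tested genes. Rxra, the partner with which LXR binds DNA, rose from 12.6 ± 1.55 FPKQ (n = 10) to 38.3 ± 3.40 in KO and 18.7 ± 0.880 in R47H (n = 5 each). The coactivator Ncoa2 (log2 difference 0.23), the acetyltransferase Crebbp (0.24) and the corepressor Nrip1 (0.45) rose in KO, and of these Crebbp also rose in R47H (0.18), though not from WT Rep1-5 (0.14, limma adjusted p = 0.143).

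Among 17 tested lipoprotein receptors and Mylip pathway genes, 5 rose and 7 fell in KO, leaving 5, and 5 rose and 2 fell in R47H, leaving 10. The receptors Lrp5, Lrp6, Sorl1 and Sort1 rose in KO, with log2 differences of 0.73, 1.28, 1.22 and 0.63, and in R47H, with 0.25, 0.42, 0.38 and 0.19. From WT Rep1-5 only Lrp6 of these was called in R47H (0.34), with 0.14 for Lrp5 (limma adjusted p = 0.168), 0.20 for Sorl1 (0.171) and 0.19 for Sort1 (0.0640), and the list had 1 gene higher in place of 5.

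Of 23 sterol synthesis genes and genes of the SREBP2 pathway, which cells turn on when sterol is short, 19 fell and 1 rose in KO, leaving 3, and 17 fell in R47H, leaving 6 (12 fell there from WT Rep1-5 and 19 from WT Rep6-10). Idi1 fell from 60.7 ± 11.6 to 18.4 ± 1.76 FPKQ in KO and to 37.2 ± 5.87 in R47H, Sqle from 47.02 ± 6.89 to 17.7 ± 2.01 and 30.0 ± 5.78, and Cyp51 from 57.7 ± 10.4 to 17.6 ± 1.77 and 37.8 ± 6.72. Of 21 other cholesterol handling genes, 9 rose and 7 fell in KO and 5 rose and 2 fell in R47H, against 52.0% and 21.2% of all tested genes called. The HDL receptor Scarb1 fell (log2 differences -0.72 and -0.30), as did the sterol carrier Stard4 (-0.78 and -0.49), and the sterol hydroxylase Cyp27a1 rose (0.83 and 0.59). Gramd1b, which moves cholesterol between membranes, rose in KO (0.83) and had a difference of 0.10 in R47H.

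Of 5 other tested ABCA and ABCG transporters, 4 rose and 1 fell in KO, and 1 rose in R47H. Abca9 rose by 0.93 and Abcg3 by 0.84 in KO, with 0.26 (not called) and 0.40 (called) in R47H, Abca3 rose by 0.23 in KO, and Abcg2 fell by 0.38. Of 5 other tested apolipoprotein genes and their partners, 2 rose and 1 fell in KO and 1 rose in R47H. The acute-phase apolipoprotein Saa3 rose in KO, from 9.65 ± 3.81 to 20.7 ± 5.65 FPKQ, and the apolipoprotein B receptor gene Apobr fell from 65.5 ± 5.63 to 43.2 ± 2.99.

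**Figure D5:**
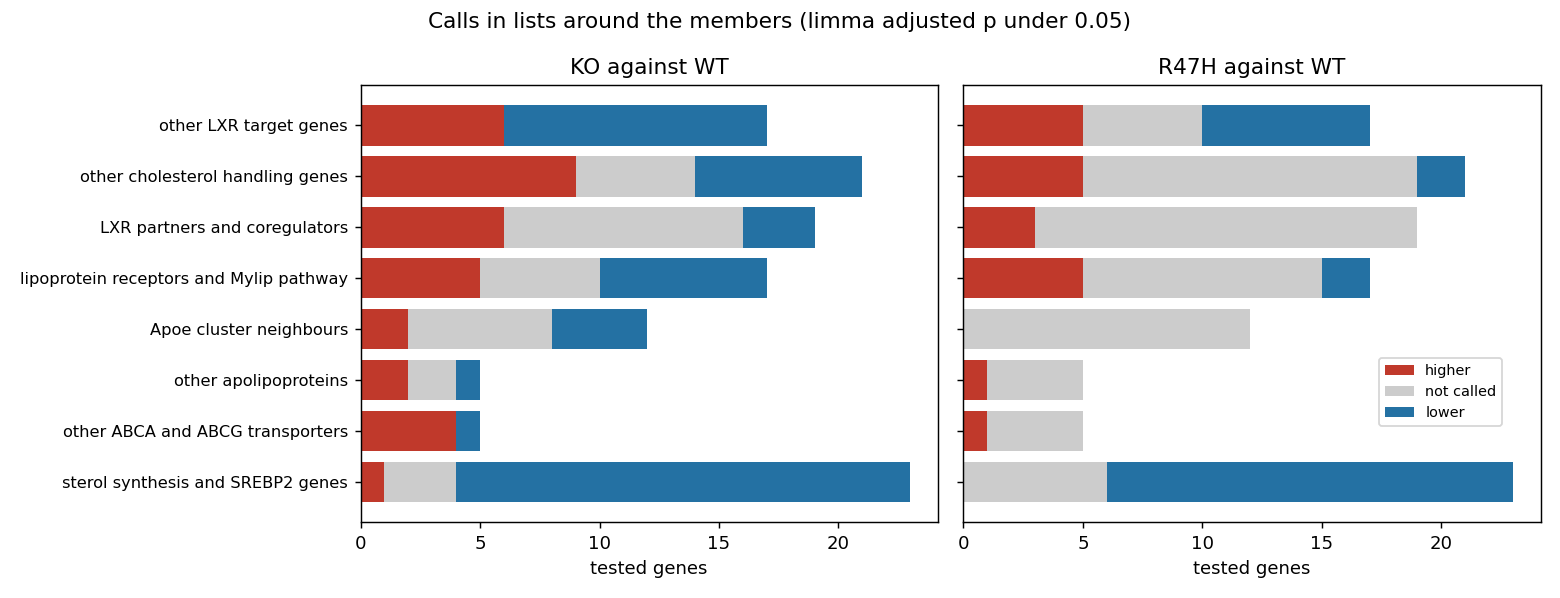
Number of tested genes in each list around the set (horizontal axis) that were called higher, called lower or not called, in KO (left) and R47H (right) against wild type. Among sterol synthesis genes 19 of 23 were lower in KO and 17 of 23 in R47H, while other genes listed as LXR targets are split between higher and lower.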

How the data were processed

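RNA of bone marrow-derived macrophages was sequenced as strand-specific poly-A libraries with paired reads of 75 bases, per the labels' protocols. The authors deposited 1 table per library of 51456 symbols with FPKQ values, treated here as FPKM. RSEM and GRCm38 were used, per the submitters' processing notes. The sources used here give neither the RSEM settings nor what FPKQ stands for. RSEM can divide fragments between overlapping or similar genes.

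The 10843 genes whose mean over the 20 libraries reached 1 FPKQ were tested on log2(FPKQ + 1), using lmFit and eBayes (trend) of limma 3.58.1 (R 4.3.3) in 1 model of the 3 groups. A model of 4 groups, with WT Rep1-5 and WT Rep6-10 apart, gave the comparisons with or between those sets. P-values were Benjamini-Hochberg adjusted over all tested genes, with calls at an adjusted p under 0.05. The pseudocount of 1 understates changes of low genes. The depth came from low values above 0 of genes with a single transcript, 732 to 1924 values per library. Of these, 84.6% to 88.0% were whole multiples of 1 fragment, within 0.1. The size of 1 fragment was chosen to bring these values close to whole multiples, so the share is partly built in. With the rest not whole, no count test was run. Pearson correlations between libraries of a group were 0.980 to 0.995. The labels do not say that each library is a separate animal, so p-values measure the spread between libraries.

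The 10 genes, the lists and the rule for named genes were chosen with earlier results of these data known. The rule named the 10 genes, Trem2, the 5 genes most like Apoe and Abca1 by each measure, and up to 4 tested genes per list with the smallest adjusted p in KO, plus genes a result turns on. Alternatives covered the wild-type set, pseudocount, filter, scaling, moderation, library weights, depth, groups in the fit, a replicate block and each library left out. The differences of differences and the control of WT Rep6-8 and Rep10 were added after seeing the data. The procedure was tested on simulated data. Coordinates came from GENCODE M21, which held 45889 of the symbols (89.2%). Python 3.11.15, numpy 2.4.6, pandas 2.3.3 and matplotlib 3.10.9 made the summaries and figures. The values of 1 gene of the lists are not reported here.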

Additional observations from a re-analysis of the deposited data

Results flagged for a closer look

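Within groups, 50 sets of libraries were checked for a library far from the others, and 5 were found; chance gives about 1 in 20, and the sets overlap. Apoc1 in KO Rep4 was 3.66 FPKQ, far above the other KO libraries. Apoc1 in WT Rep8 was 1.16 FPKQ, far above the rest of WT Rep6-10. Pltp in WT Rep10 was 965 FPKQ, the lowest of wild type. WT Rep9 stood out for 2 genes: Abca1, at 27.2 FPKQ the highest of WT Rep6-10, and Nr1h3, at 21.9 FPKQ the highest of wild type. The summed dendritic cell markers ran from 29.1 to 87.3 FPKQ in wild type, mostly from Itgax, which was also highest in WT Rep9; their part in these values was not tested.

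The effects of the mutations against the shared wild-type libraries differed between R47H and KO for 5 of the 10 genes. This is near the 40.7% of all tested genes called between the mutants. The effect in R47H minus that in KO was -0.78 for Apoe, -0.97 for Abca1 and -0.73 for Mylip, and 0.25 for Pltp and 0.37 for Nr1h3, with limma adjusted p from 3.98e-04 to 0.0385. Taken from separate wild-type sets, these differences depend on which set serves which mutant, as given above.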

How the results depend on the processing

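Apoe, Apoc2, Abca1 and Mylip in KO, and Apoe, Apoc2 and Nr1h3 in R47H, stayed called in the same direction under every alternative run. Pairing by replicate number was looked at only among WT Rep1-5, KO and R47H. Whether WT Rep6-10 pair with either mutant was not tested. Correlations of same-numbered libraries ran from -0.15 to 0.22 for WT Rep1-5 with KO and -0.12 to 0.31 for KO with R47H. They ran from 0.045 to 0.16 for WT Rep1-5 with R47H. For the last, 4 of 5 pairs were over 0.1 and the mean was 0.12 (-0.030 for different numbers), but 2 of 5 libraries of either group correlated best with their own number. A replicate block leaves WT Rep6-10 without a partner and so gives the differences from WT Rep1-5, with 4398 genes called in KO, 1802 in R47H and 4178 between the mutants. Under it Apoc1 in KO (adjusted p = 0.200) and Mylip in R47H (adjusted p = 0.162) were lost, and Abca1 (-0.032) and Abcg1 (-0.0059) in R47H turned sign, as with WT Rep1-5 as control. Apoc1 in KO was also lost with no filter, and Apoc1 and Nr1h3 in KO with depth as a covariate. Mylip in R47H was lost with no filter, library weights or depth as a covariate, and without R47H Rep2, Rep3 or Rep5 (adjusted p from 0.0502 to 0.0642), and Pltp between the mutants under 5 of the settings and without any of KO Rep2, Rep3 and Rep5 or R47H Rep2, Rep3 and Rep5.

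Genes called in R47H numbered 2301, and 1127 with depth as a covariate. Between the wild-type sets 706 genes and 2 members were called, but 2221 and 5 with library weights, and 417 to 617 genes with a library left out. Between the mutants 4417 genes and 5 members were called, against 1559 and 1 with R47H from WT Rep6-10 and KO from WT Rep1-5. The cause was not tested.

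Signs that turned were those of values not called. In KO, Nr1h2 was -0.021 with depth as a covariate, and Pltp 0.042 and Abcg1 0.059 from WT Rep6-8 and Rep10. In R47H, Abcg1 was -0.062 with equal sums and -0.030 with quantile scaling, Abca7 was -0.10, -0.0029, -0.029 and -0.00697 with equal sums, quantile, median of ratios and depth, and Nr1h2 was 0.037 from WT Rep6-10. Between the wild-type sets Abca7 was -0.0042, -0.0013 and -0.0021 under the 3 scalings. In the differences of differences Apoc1 was 0.16 and Apoc2 0.15, and with the sets exchanged Abcg1 was -0.0014. With a library left out, Abca7 ran from -0.038 to 0.063 in R47H and from -0.028 to 0.035 between the wild-type sets, Abcg1 from -0.0010 to 0.12 and Nr1h2 from -0.055 to 0.080 in R47H, and Apoc1 from -0.26 to 0.17 between the mutants. Apoc1 had no value with a minimum mean of 5 FPKQ. Depth limits Apoc1 most, at a median of 4.92 fragments in wild type.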

Other observations

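Apoc4, the remaining apolipoprotein gene of the cluster, was below the minimum level and was not tested. It was listed at 0 in all of WT Rep1-5 and at 0 to 0.173 FPKQ in WT Rep6-10, at 0.139 to 0.790 in KO and at 0 to 0.411 in R47H.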
